A study of Drosophila melanogaster with 48 samples.

Results

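Transcripts of the mitochondrial ribosomal protein genes of *Drosophila melanogaster* were followed in abdominal fat body tissue on a control and on a restricted diet. The genes were chosen by name, as those whose FlyBase symbol starts with mRpL or mRpS followed by a digit. Among the 14205 genes deposited, 71 had such a symbol, 24 for proteins of the small and 47 for proteins of the large ribosomal subunit. All 71 passed the filter on low counts, which left 10070 genes for testing. The genes mRpS5 and mRpS34, which the name table also lists, were not analysed here.

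Mitochondria carry ribosomes of their own, which translate the few proteins encoded in mitochondrial DNA, core subunits of the respiratory chain and of the ATP synthase. The small subunit reads the messenger RNA, and the large subunit joins the amino acids at the peptidyl transferase centre and releases the chain through an exit tunnel. The ribosomal RNAs of this ribosome come from mitochondrial DNA, whereas its proteins are encoded in the nucleus, made in the cytosol and imported. Many of these proteins have a bacterial counterpart and share its number, and those with higher numbers were first described in mitochondria. In the fly fat body, which stores lipid and glycogen and takes part in nutrient sensing, respiratory chain subunits have to be supplied from both genomes.

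The flies were mated females of the strain w1118 (iso31 / Bloomington stock #5905), about 3 days old at the start and about 8 days old at dissection. They were kept for 5 days at 25 °C under 12 h of light and 12 h of dark. The control food held 15% sucrose and yeast, and the restricted food held 5% of them. Abdominal fat tissue with the attached oenocytes and epidermis was pooled from about 10 flies per library, once gut, ovaries and Malpighian tubules had been taken out. Dissections were 2 h apart and covered 12 zeitgeber times, abbreviated ZT and counted in hours from lights on. For each diet and time there were 2 libraries, numbered replicate 1 and replicate 2, so that each diet had 12 libraries in each replicate series and 24 in all. The submitters call the replicates biological and do not say whether libraries of the same number shared a cage, a day or a batch. The p-values measure the spread between these libraries.

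Totals ranged from 5815484 to 33485917 estimated counts per library, of which 8045 to 55937 fell on the 71 genes. All 8 fat body markers were found, among them the lipoprotein gene apolpp, and none was at 0 in any group. Ovary markers were present in every group and were lowest on the restricted diet of series 2, where their summed level had a median of 203.5 CPM (counts relative to the library's TMM-scaled size) against 1387 on the control diet, and 1386 against 1857 in series 1. The median share of counts on ribosomal RNA was 0.41% on the control and 1.43% on the restricted diet in series 1 (53.8% in the restricted library of ZT 2), and 0.367% and 1.06% in series 2, and its part in the results was not tested. By an annotation of the genome, exons of 41 of the 71 genes overlapped exons of another gene, on the opposite strand for 40. Strandedness of the reads is not given in the sources used here, and reads of overlapping genes cannot be told apart with certainty. On the same strand mRpL13 overlapped CG10602, mRpL53 overlapped CG33155 and mRpS14 overlapped CG32533, and the estimated counts of these pairs are uncertain.

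Levels of different genes were compared as TPM, a relative transcript abundance that divides counts by transcript length. The 71 genes had similar levels. In 60 of them the mean over the 48 libraries lay between 20 and 50 TPM, 3 were lower and 8 were higher. The highest was mRpS9, whose bacterial counterpart reaches the peptidyl site of the small subunit, with 74.4 ± 7.01 TPM (SD, n = 48). It was followed by mRpL28 with 73.1 ± 10.5 TPM, mRpS21 with 72.2 ± 13.9 TPM and mRpL30 with 62.4 ± 10.3 TPM. At the other end stood mRpL48 with 17.2 ± 4.01 TPM, mRpL11 with 19.4 ± 5.03 TPM, mRpL50 with 19.7 ± 5.39 TPM and mRpS18B with 21.3 ± 4.79 TPM. The SDs of neighbouring genes overlapped along the whole order. The proteins encoded by mRpS18A, mRpS18B and mRpS18C are 3 versions of bacterial S18, and their mean levels were 48.9, 21.3 and 33.2 TPM. The median over the small subunit genes was 33.4 TPM and that over the large subunit genes 32.4 TPM. Genes numbered as bacterial proteins (up to S21 and up to L36) had a median of 34.2 TPM and those with higher numbers one of 30.6 TPM.

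**Figure D1:**
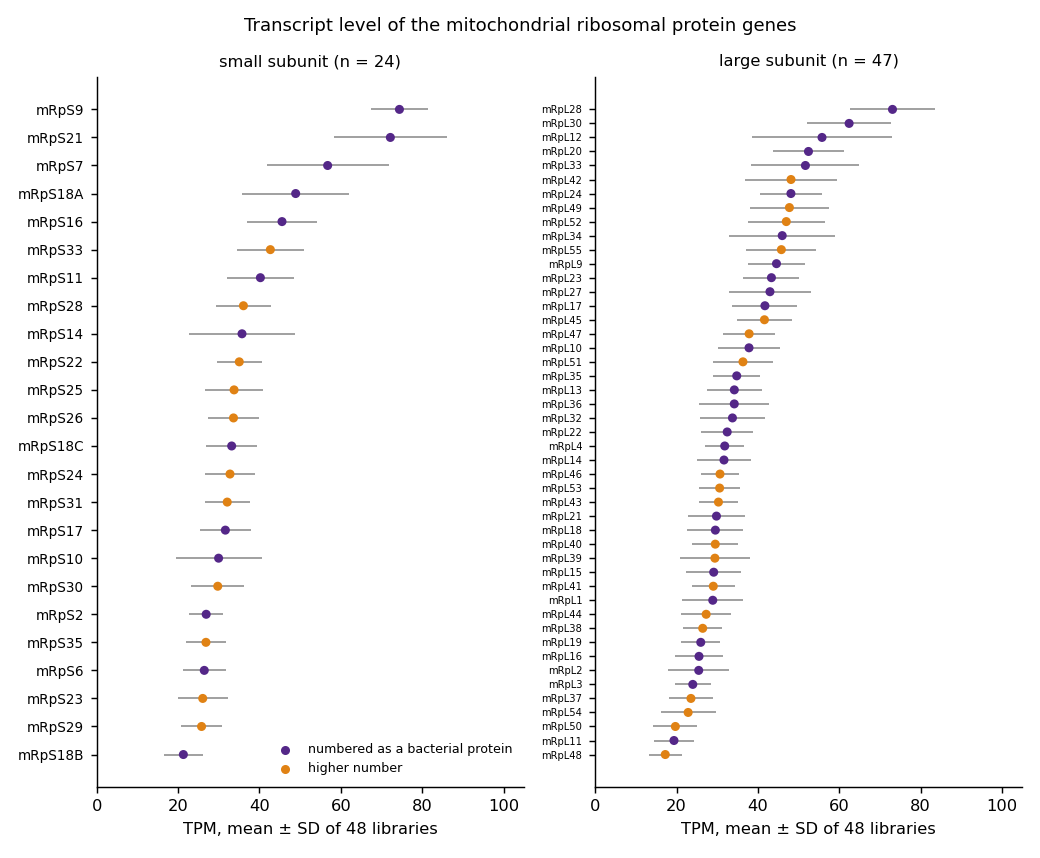
Mean transcript level in TPM (x axis) of the 24 small subunit genes (left) and the 47 large subunit genes (right), with bars for the SD over 48 libraries and colours for the number class. Most genes lie between 20 and 50 TPM, with mRpS9 at 74.4 TPM and mRpL48 at 17.2 TPM at the ends.

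Diet was compared as restricted minus control. Over all 48 libraries the genes moved little with diet. A gene was called where edgeR's quasi-likelihood test gave a p under 0.05 after Benjamini-Hochberg adjustment over 10070 genes. mRpL24 rose and mRpL39 and mRpL1 fell, so that 3 of 71 genes changed where 25.8% of all genes did (10.4% higher and 15.4% lower). The median log2 change was 0.02 over the 71 genes and 0.01 over all genes tested, and 42 of 71 genes were above 0. In bulk tissue fewer cells of a type and less transcript per cell cannot be told apart.

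mRpL39 encodes a large subunit protein with no bacterial number that resembles a threonyl-tRNA synthetase in mammals. On the control diet its level ranged from 21.1 to 36.5 CPM with a median of 28.8 in series 1, and from 19.2 to 35.9 CPM with a median of 26.5 in series 2. On the restricted diet it ranged from 20.7 to 28.3 CPM with a median of 23.5 in series 1, and from 19.3 to 32.6 CPM with a median of 21.9 in series 2. The restricted libraries were lower in the middle of the range in both series, and the groups overlapped. The log2 change was -0.23 ± 0.07 (SE, n = 24 against 24, adjusted p = 0.0194), and the restricted library was the higher of the pair at 2 of 12 times in series 1 and at 4 of 12 in series 2. A pair here is the control and the restricted library of the same number and time, which may share nothing else.

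mRpL1 encodes the counterpart of bacterial L1, the protein of the mobile stalk beside the tRNA exit site. Its median level was 28.5 CPM on the control and 24.6 CPM on the restricted diet in series 1 (range 21.1 to 38.2 and 18.5 to 27.2), and 31.1 CPM and 27.9 CPM in series 2 (range 21.9 to 35.9 and 21.7 to 34.1). The groups overlapped in both series. It fell by 0.17 ± 0.06 on the log2 scale (adjusted p = 0.0328), and this call was lost in 15 of 48 fits that left out 1 library.

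mRpL24 encodes the counterpart of bacterial L24, which sits at the exit of the tunnel. In series 1 it had a median of 27.8 CPM on the control diet and 30.2 CPM on the restricted diet, with ranges of 24.8 to 36.3 and 23.5 to 35.4. In series 2 the medians were 28.0 CPM and 34.2 CPM, with ranges of 25.0 to 36.03 and 26.7 to 41.9. It was higher in the restricted library at 7 of 12 times in series 1 and at 11 of 12 in series 2, and its log2 change was 0.14 ± 0.05 (adjusted p = 0.0273). Without the filter on low counts mRpL24 did not pass (0.13 ± 0.05, adjusted p = 0.0737), nor did it in TPM (0.02 ± 0.06, adjusted p = 0.864 by limma). In that TPM fit the median of all genes was -0.09. The other low values were those of mRpS10, below mRpL1 at -0.19 ± 0.09 (adjusted p = 0.118), and mRpL14 (-0.13 ± 0.07, adjusted p = 0.156). Among the higher ones mRpL36 (0.26 ± 0.14, adjusted p = 0.147), mRpL27 (0.19 ± 0.13, adjusted p = 0.275), mRpL23 (0.16 ± 0.08, adjusted p = 0.127) and mRpS17 (0.15 ± 0.09, adjusted p = 0.195) did not pass the test either.

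The change was then taken in each replicate series, with 12 libraries against 12 and time of day in the fit. In series 1 none of the 71 genes passed edgeR's test, and 0.0199% of all genes did. At an unadjusted p under 0.05 there were 17, all lower on the restricted diet, where 8.41% of all genes were lower at that p. By DESeq2 mRpS16 and mRpS28 were called lower, where that test called 2.09% of all genes. Of the 71 genes 68 were below 0, with a median of -0.12 against -0.02 for all genes, and all 24 small subunit genes were among them. On the TPM scale the median was -0.16 against -0.06 for all genes.

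The lowest value in series 1 was that of mRpS28, which encodes a small subunit protein with a number above the bacterial ones. It ranged from 14.9 to 21.3 CPM with a median of 16.7 on the control diet, and from 11.4 to 16.0 CPM with a median of 13.3 on the restricted diet. All 12 restricted libraries lay below the control median, and at each of the 12 times the restricted library was the lower of the pair, although the ranges overlapped. The log2 difference was -0.37 ± 0.09 (adjusted p = 0.188). mRpS16, whose bacterial counterpart acts in the assembly of the small subunit, ranged from 12.6 to 19.2 CPM with a median of 15.0 on the control diet, and from 9.77 to 14.3 CPM with a median of 12.4 on the restricted diet. It was lower at 11 of 12 times, with a log2 difference of -0.32 ± 0.09 (adjusted p = 0.218).

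In series 2 the same comparison gave 35 genes that rose and 0 that fell on the CPM scale, which is 49.3% of the genes, where 42.8% of all genes changed, 20.9% higher and 21.9% lower. The median log2 change was 0.14 against 0.01 for all genes and 63 of 71 genes were above 0, but on the TPM scale the median was -0.05 (all genes -0.14) and 24 of 71 genes were above 0. The TPM scale moved the median of all genes by more than 0.1, and relative to all genes the 71 genes stood 0.13 higher in CPM and 0.09 higher in TPM. With a trend with transcript length removed, as described below, their median minus that of all genes was -0.04. Of the large subunit genes 25 of 47 rose and of the small subunit genes 10 of 24. Among genes numbered as bacterial proteins 24 of 41 rose, and among those with higher numbers 11 of 30. These differences between classes were not tested.

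mRpL36, which encodes the counterpart of the smallest protein of the bacterial large subunit, had the largest change in series 2. It ranged from 8.07 to 11.3 CPM with a median of 10.5 on the control diet, and from 10.5 to 16.4 CPM with a median of 13.5 on the restricted diet. The restricted library was the higher of the pair at all 12 times, and 10 of 12 restricted libraries were above every control library, so that the groups overlapped in the others. The log2 change was 0.45 ± 0.06 (adjusted p = 0.00052). On the TPM scale it also rose (0.25 ± 0.06, adjusted p = 0.00573 by limma). In series 1 its medians were 7.58 CPM and 7.27 CPM, and both diets of series 2 stood above both of series 1 in their medians.

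mRpL27 encodes the counterpart of bacterial L27, whose tail reaches the peptidyl transferase centre. In series 2 it ranged from 12.3 to 18.7 CPM with a median of 14.4 on the control diet, and from 14.0 to 24.1 CPM with a median of 20.1 on the restricted diet. The restricted library was the higher of the pair at 11 of 12 times, 8 restricted libraries were above every control library, and the others overlapped. The log2 change was 0.42 ± 0.08 (adjusted p = 0.00253). In series 1 the medians were 12.5 CPM on the control and 11.3 CPM on the restricted diet.

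mRpL45, whose mammalian protein lies at the tunnel exit next to the inner membrane, ranged from 36.8 to 53.0 CPM with a median of 45.4 on the control diet of series 2, and from 45.8 to 67.8 CPM with a median of 51.1 on the restricted diet. It was higher at all 12 times, and the ranges overlapped. Its log2 change was 0.24 ± 0.05 (adjusted p = 0.00262).

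mRpL23, mRpS17 and mRpL32 were the other genes whose restricted library was the higher of the pair at all 12 times of series 2. mRpL23, the counterpart of a bacterial protein at the tunnel exit, ranged from 13.5 to 19.4 CPM with a median of 15.6 on the control diet, and from 15.6 to 24.1 CPM with a median of 20.2 on the restricted diet (log2 change 0.34 ± 0.07, adjusted p = 0.00262). mRpS17, whose bacterial counterpart binds the RNA of the small subunit, ranged from 12.5 to 19.0 CPM with a median of 15.2, and from 15.3 to 22.5 CPM with a median of 18.8 (0.30 ± 0.06, adjusted p = 0.00328). For both, all 12 restricted libraries were above the control median and 6 were above every control library. mRpL32 went from a median of 13.8 CPM (range 11.8 to 16.5) to one of 16.5 CPM (range 12.9 to 21.01), with a log2 change of 0.25 ± 0.06 (adjusted p = 0.00463). In series 1 all 12 restricted libraries of mRpL32 were below the control median of 17.9 CPM, and its change there was -0.18 ± 0.07 (adjusted p = 0.261).

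Further large subunit genes that rose in series 2 on the CPM scale were mRpL55 (0.36), mRpL41 (0.34), mRpL34 (0.31), mRpL20 (0.31), mRpL40 (0.29), mRpL33 (0.29), mRpL28 (0.28), mRpL13 (0.27), mRpL43 (0.26) and mRpL51 (0.25). Smaller changes were those of mRpL24 (0.22), mRpL46 (0.22), mRpL21 (0.21), mRpL35 (0.19), mRpL17 (0.19), mRpL47 (0.17), mRpL18 (0.17), mRpL53 (0.16), mRpL9 (0.15) and mRpL4 (0.14). Small subunit genes that rose were mRpS11 (0.30), mRpS21 (0.29), mRpS14 (0.28), mRpS16 (0.22), mRpS18C (0.20), mRpS24 (0.18), mRpS6 (0.17), mRpS7 (0.16) and mRpS25 (0.13), with adjusted p from 0.005 for mRpS11 to 0.0464 for mRpS24. Within a series each time had its own term, so that leaving out 1 library also takes the other of that time out of the comparison. Leaving out 1 library at a time ended the call of mRpS24 in 20 of 24 fits, of mRpS25 and mRpS6 in 18, of mRpL4 in 15, of mRpL34 in 14, of mRpL53 in 13 and of mRpS18C in 12. It ended those of mRpL18 and mRpL9 in 9, of mRpL33 in 4 and of mRpL35 and mRpS14 in 1. mRpL39 had the lowest value of the 71 genes in series 2, -0.16. Control and restricted libraries overlapped for each of the 71 genes in both series. How often this held over all genes is not given here.

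**Figure D2:**
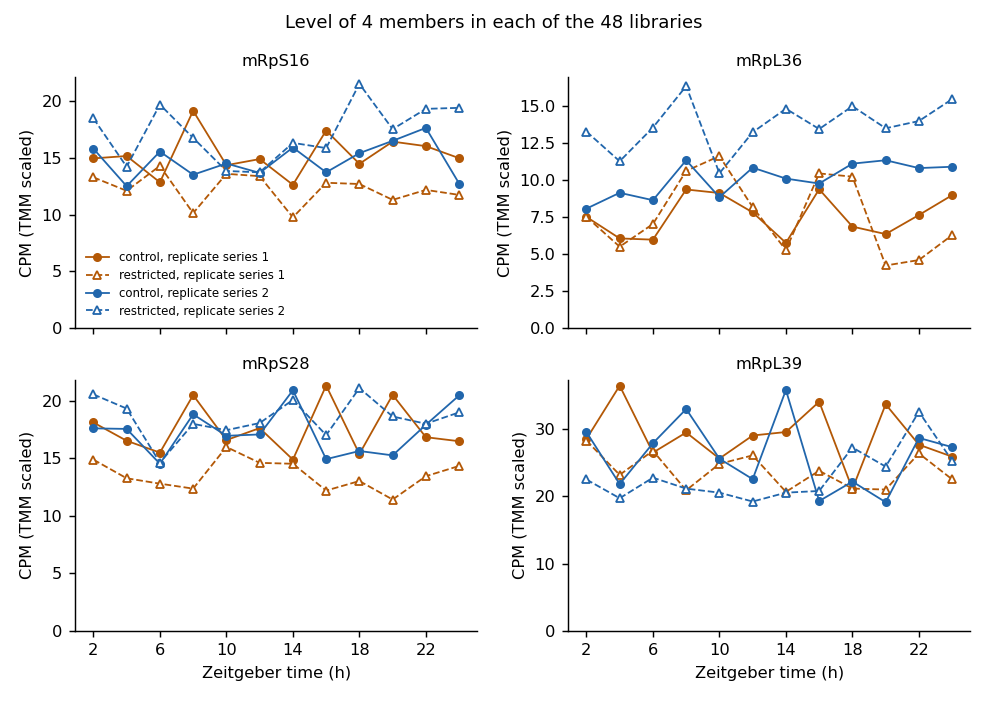
Level in CPM (TMM scaled, y axis) of mRpS16, mRpL36, mRpS28 and mRpL39 in each of the 48 libraries against zeitgeber time (x axis), with colours for the replicate series and dashed lines for the restricted diet. For mRpS28 the restricted libraries of series 1 lie between 11.4 and 16.0 CPM, and for mRpL36 those of series 2 lie between 10.5 and 16.4 CPM.

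The difference of the diet changes between the series was tested as an interaction. It passed for 20 of 71 genes, all more positive in series 2, which is 28.2%, where 9.11% of all genes were called and 4.49% in that direction. Of the 71 genes each had the higher value in series 2, where 48.7% of all genes did, and the median difference was 0.28 on the log2 scale against -0.01 for all genes. On the TPM scale 61 of 71 were higher in series 2 (median 0.15, all genes -0.11) and limma called 0 (all genes 5.34%), with 12 at an unadjusted p under 0.05. On the CPM scale 60 genes were lower in series 1 and higher in series 2, 8 were lower in both and 3 were higher in both. Of the 20 genes 18 had also risen in series 2.

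The smallest p was that of mRpS16, which stood at -0.32 in series 1 and at 0.22 in series 2. In series 2 it ranged from 12.5 to 17.7 CPM with a median of 15.0 on the control diet, and from 13.7 to 21.6 CPM with a median of 17.2 on the restricted diet. The control medians of both series were 15.0 CPM, and the restricted median was below them in series 1 and above them in series 2. The difference between the series was 0.52 ± 0.10 (SE, adjusted p = 0.00303). For mRpL32, which in yeast and mammals is cut by a mitochondrial protease before it joins the ribosome, it was 0.42 ± 0.08 (adjusted p = 0.00404), from -0.18 to 0.25. For mRpS28 it was 0.46 ± 0.10 (adjusted p = 0.00506), although its change in series 2 (0.11) did not pass the test. The largest difference was that of mRpL27 (0.60 ± 0.17, adjusted p = 0.0266). That of mRpS14 was 0.55 ± 0.18 and did not pass (adjusted p = 0.0598).

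The called genes held 6 of the small subunit (mRpS11, mRpS16, mRpS21, mRpS25, mRpS28 and mRpS33) and 14 of the large one. The latter were mRpL18, mRpL21, mRpL23, mRpL27, mRpL28, mRpL32, mRpL36, mRpL41, mRpL45, mRpL46, mRpL47, mRpL51, mRpL53 and mRpL55. The genes that changed over all 48 libraries, mRpL1, mRpL24 and mRpL39, were not among them. In the fit of this difference each series had its own term for each time, so that leaving out 1 library also removes the other library of that series and time. This ended the call of mRpL47 in 26 of 48 fits, of mRpL23 in 20, of mRpL28 in 14, of mRpL46 in 11, of mRpS21 in 10, of mRpL21 in 8 and of mRpL55 in 2. Without the pair of ZT 6 of series 1 there were 32 calls, and without that of ZT 8 of series 2 there were 13. The shares of all genes called in these fits are not given here.

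**Figure D3:**
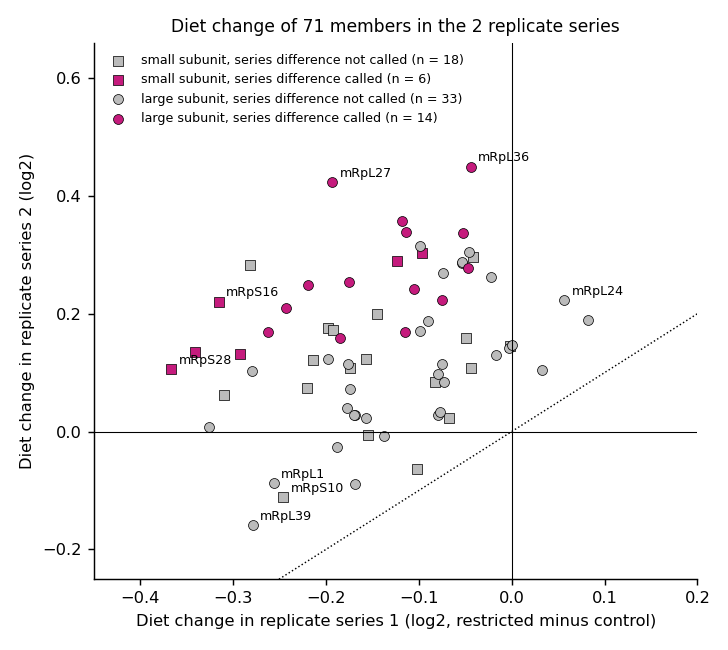
Log2 diet change (restricted minus control, CPM scale) of the 71 genes in replicate series 1 (x axis) and series 2 (y axis), with squares for the small subunit, circles for the large one, colour for the 20 genes whose series difference was called and a dotted line where both series are equal. All 71 points lie above the line, and on the TPM scale 61 of 71 genes do.

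Pair by pair, the median over the 71 genes was unsteady in series 1. It lay below 0 at 7 and above 0 at 5 of the 12 times, from -0.42 at ZT 20, where 68 of 71 genes were lower on the restricted diet, to 0.19 at ZT 6, where 56 were higher. In series 2 it was above 0 at 10 times. It was lowest at ZT 12 (-0.05) and ZT 10 (-0.05) and highest at ZT 18 (0.42), where all 71 genes were higher in log2 CPM. The SD of the 12 medians was 0.21 in series 1 and 0.12 in series 2, whereas the medians of all genes stayed between -0.06 and 0.05 in both. Without ZT 18 series 2 had 26 genes that rose, where 38.7% of all genes were called, and the series difference had 20 calls, where 7.63% were.

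**Figure D4:**
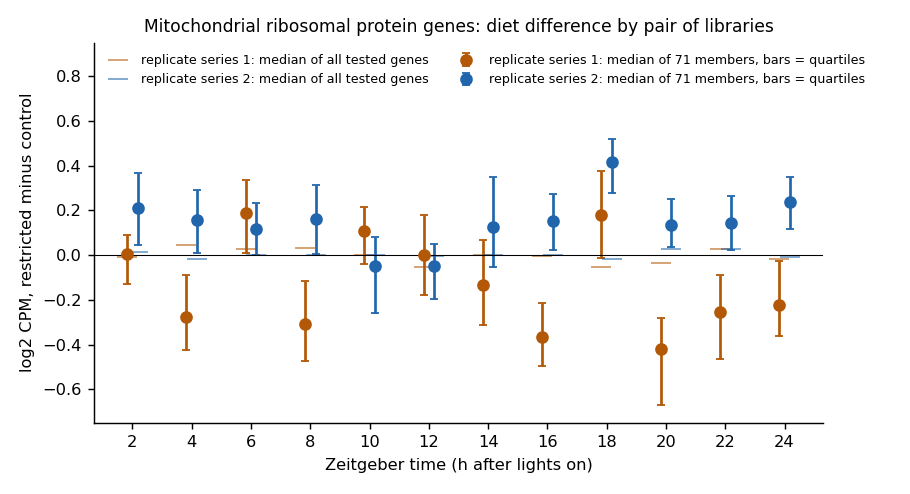
Median difference in log2 CPM (y axis, restricted minus control, bars for the quartiles of the 71 genes) for each pair of libraries of 1 replicate series and zeitgeber time (x axis), with short lines for the median of all tested genes. On this scale the medians of series 1 run from -0.42 to 0.19 and those of series 2 from -0.05 to 0.42; over the times the TPM median of series 2 was -0.05.

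Transcript length moved with these differences. An effective length relative to the median of the 71 genes was read from the ratio of estimated count to TPM of each gene, and 9.53% of 9872 genes were shorter than that median. Over the 71 genes Spearman's rho between length and log2 diet change was 0.17 in series 1, -0.55 in series 2 and -0.64 for the series difference. Over the 9872 genes these were 0.11, -0.29 and -0.38. All points share the same libraries, and no test was made. The 17 shortest of the 71 genes had a median change of 0.29 in series 2 with 13 called, and the 18 longest had one of 0.03 with 3 called. All genes were also split by length into 10 bins of about 987. The shortest bins had medians of 0.28 and 0.17 in series 2, and the longest had -0.22. In the shortest bin 761 of 988 genes were above 0 in series 2 and 486 were called in either direction. In the series difference the bins ran from 0.28 to -0.32. The shortest had 754 of 988 genes above 0 there and 174 called in either direction.

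When each library's trend with length over all genes was removed, the median of the 71 genes was -0.14 in series 1, -0.04 in series 2 and 0.11 for the series difference. The medians of all genes were -0.03, 0.004 and 0.02. In series 2, where this fit called 36.5% of all genes, mRpL28 (0.18 ± 0.06, adjusted p = 0.0253), mRpL36 (0.18 ± 0.05, adjusted p = 0.019), mRpL27 (0.17 ± 0.06, adjusted p = 0.0341) and mRpL45 (0.16 ± 0.04, adjusted p = 0.013) still rose by edgeR's test. mRpL14 (-0.32 ± 0.07, adjusted p = 0.00649) and mRpS10 (-0.31 ± 0.10, adjusted p = 0.0316) fell. The series difference was called for mRpL45 alone (0.28 ± 0.07, adjusted p = 0.0253) and for 4.07% of all genes, with 61 of 71 genes still above 0. Over all 48 libraries 11 of 71 genes fell and 0 rose, where 26.8% of all genes were called, and mRpL1 and mRpL39 were among those that fell. The part of RNA length or quality in the results was not tested.

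**Figure D5:**
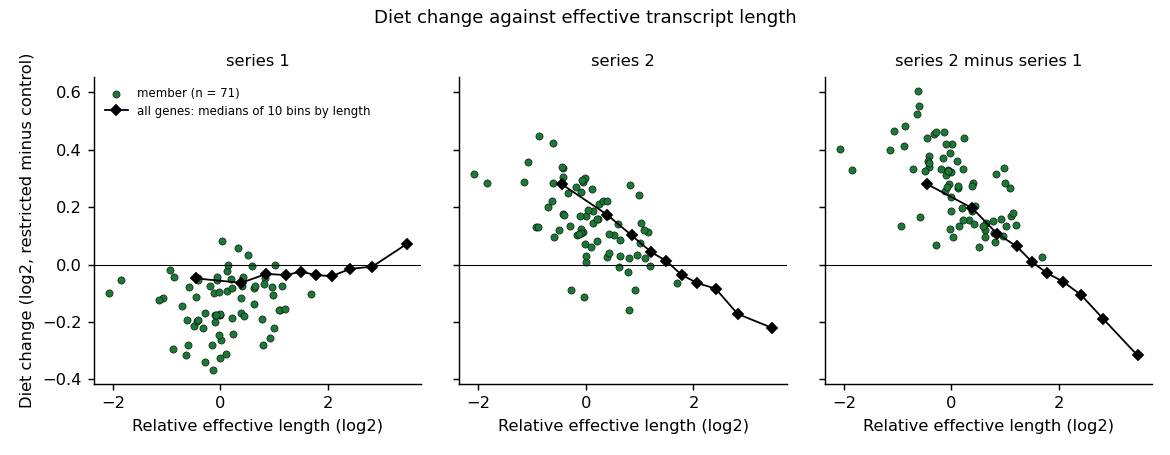
Log2 diet change (y axis, restricted minus control, CPM scale) of the 71 genes (green points) against relative effective transcript length (x axis, log2, 0 is the median of the 71 genes), in series 1, in series 2 and as their difference. Black diamonds are the medians of 10 bins of all genes by length, which in series 2 fall from 0.28 to -0.22.

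Ovary transcripts also moved with diet, and more so in series 2. The mean log2 CPM of the 24 ovary markers was 4.81 ± 1.43 on the control and 3.97 ± 1.60 on the restricted diet in series 1, and 4.12 ± 1.26 and 1.18 ± 1.49 in series 2 (SD, n = 12 each). Of the 24 markers 17 fell in series 2 and 0 were called in series 1, and none was at 0 in any group. With this mean as a covariate none of the 71 genes was called by edgeR in series 2 (6 at an unadjusted p under 0.05), as 0% of all genes were, their median stayed at 0.11 on the CPM scale, and 4 genes were called for the series difference, mRpL32, mRpL45, mRpS16 and mRpS28, where 2.35% of all genes were. With a score of gut markers added edgeR called 0 in series 2 (5 at an unadjusted p under 0.05; all genes 0%) and 0 over all 48 libraries (7; all genes 0.179%). It called 5 for the series difference, mRpL51 in addition, and 3.12% of all genes. Ovary transcript content and diet moved together in series 2, and their parts in the counts cannot be told apart there. Markers of the tissues left attached moved as well. Of 6 oenocyte markers 5 rose in series 2, among them eloF (0.76) and Cyp4g1 (0.52), and 0 were called in series 1, with median summed levels of 54720 CPM on the control and 83200 CPM on the restricted diet in series 2 and of 72670 and 70130 CPM in series 1. Of 5 epidermis markers 4 rose in series 2, among them Cpr97Eb (0.69) and grh (0.36), and 0 were called in series 1, with median summed levels of 135.2 and 194.5 CPM in series 2 and of 91.2 and 127.3 CPM in series 1. Fat body markers had median summed levels of 18220 CPM on the control and 16390 CPM on the restricted diet in series 2, and of 14390 and 18210 CPM in series 1. For muscle these were 5666 and 7440 CPM in series 2, and 4858 and 5549 CPM in series 1. For Malpighian tubules they were 256.8 and 160.3 CPM in series 2, and 301.2 and 439.1 CPM in series 1. No marker of the oenocyte, epidermis, fat body, muscle and Malpighian tubule lists was at 0 in any group, and their part in the results was not tested. For gut markers the median summed levels were 40.59 and 38.23 CPM in series 2, and 174.7 and 222.4 CPM in series 1. The highest library had 5160 and 12520 CPM in series 2, and 9091 and 4352 CPM in series 1. The gut marker Jon66Cii was at 0 on the control diet of series 2.

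The other genes of mitochondrial gene expression were counted in the same fits, from lists drawn up by function. Of 15 mitochondrial aminoacyl-tRNA synthetases, which charge the tRNAs used by this ribosome, CysRS-m (0.32 ± 0.06, adjusted p = 0.0026), PheRS-m (0.28 ± 0.06, adjusted p = 0.00406) and AsnRS-m (0.27 ± 0.10, adjusted p = 0.0423) rose in series 2 on the CPM scale and AspRS-m fell (-0.27 ± 0.08, adjusted p = 0.0138). Their medians were -0.03 in series 1 and 0.00 in series 2, and none was called for the series difference. On the TPM scale 0 rose and 5 fell in series 2 (median -0.21), where the median of all genes was -0.14. Of 8 translation factors, among them the elongation factor genes mEFTu1, mEFTs and mEFG1, none was called in either series, and the medians were -0.05 and 0.09. Of 11 genes for the transcription and upkeep of mitochondrial DNA, the termination factor gene mTTF (0.24 ± 0.05, adjusted p = 0.00304) and mTerf3 (0.21 ± 0.07, adjusted p = 0.0304) rose in series 2 on the CPM scale. The DNA polymerase subunit gene PolG1 fell (-0.65 ± 0.17, adjusted p = 0.00962). In TPM 0 of these 11 rose in series 2 and 3 fell. Of the mitoribosomal genes with other symbols, tko, the counterpart of bacterial S12, rose in series 2 on the CPM scale (0.22 ± 0.07, adjusted p = 0.0157), as did CRIF (0.16 ± 0.04, adjusted p = 0.0105). bonsai, the counterpart of S15, stood at -0.02 ± 0.05 (adjusted p = 0.712). In TPM 0 of these 3 rose in series 2 and 1 fell.

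The messages that this ribosome translates differed between the series in the same direction on the CPM scale. Of 12 tested mitochondrially encoded mRNAs none was called in series 1, where all 12 were lower with a median of -0.61. In series 2 all 12 were higher with a median of 0.28 and 9 rose, such as the ATP synthase gene mt:ATPase6 (0.32 ± 0.07, adjusted p = 0.00378) and the cytochrome c oxidase gene mt:CoII (0.30 ± 0.08, adjusted p = 0.0106). The difference was called for 9 of 12, and on the TPM scale for 5 of 12 (median 0.77), with 2 of 12 called higher in series 2 (median 0.09). Rows of mitochondrial DNA took 5.67% ± 0.844 of counts on the control and 4.15% ± 2.04 on the restricted diet in series 1, and 2.30% ± 0.143 and 2.56% ± 0.140 in series 2 (SD, n = 12 each). Of 61 nuclear genes of oxidative phosphorylation 59 rose in series 2, with medians of 0.08 in series 1 and 0.36 in series 2, and 8 were called for the series difference, all in CPM. In TPM 46 of 61 rose in series 2 (median 0.16) and with the length trend removed 38 did. Of 81 cytosolic ribosomal protein genes 78 rose in series 2, with medians of -0.23 and 0.38, and 77 were called for the series difference, again in CPM. In TPM 66 rose in series 2 (median 0.18) and 65 were called for the series difference, and with the length trend removed 61 and 59. For the 71 mitochondrial genes the corresponding counts of genes that rose in series 2 were 1 in TPM and 4 with the length trend removed. Both of these lists have short transcripts, with median relative lengths of -0.22 and -0.13 on the log2 scale, where all genes have 1.64.

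Time of day was tested next. At none of the 12 times was any of the 71 genes called for diet by edgeR with 2 libraries against 2, and 0% of all genes were. The number at an unadjusted p under 0.05 was 4 at ZT 18, all higher, where 2.13% of all genes reached that p. It was 2 at ZT 14 (all genes 13.7%) and 1 each at ZT 4 (19.2%), ZT 6 (1.47%) and ZT 8 (3.08%). The diet change did not pass a test for variation over the 12 times in any of the 71 genes, with 0 at an unadjusted p under 0.05 (all genes 1.33%) and 0% of all genes called. The difference between the light phase (ZT 2 to 12) and the dark phase (ZT 14 to 24) was likewise called for 0 of 71 genes and for 0% of all genes, with 0 at an unadjusted p under 0.05 (all genes 1.21%). The median diet change was 0.02 in each phase.

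Rhythms of 24 h were called for 0 of 71 genes on the control diet, where 1.34% of all genes were called, and for 0 on the restricted diet, where 1.15% were. At an unadjusted p under 0.05 there were 1 and 3, where 11% and 8.91% of all genes were. The clock gene tim served as a check, with log2 amplitudes of 1.48 (adjusted p = 1.18e-06) and 1.58 (adjusted p = 2.1e-08). The median amplitude of the 71 genes was 0.07 on the control and 0.08 on the restricted diet. The largest on the control diet were those of mRpL34 (0.19 ± 0.09, adjusted p = 0.597), mRpL55 (0.18 ± 0.07, adjusted p = 0.459) and mRpS10 (0.17 ± 0.09, adjusted p = 0.711). On the restricted diet mRpL54 (0.24 ± 0.07, adjusted p = 0.292), mRpS14 (0.21 ± 0.19, adjusted p = 0.999) and mRpL33 (0.17 ± 0.08, adjusted p = 0.699) had the largest. A rhythm difference between diets was called for 0 of 71 genes, with 0 at an unadjusted p under 0.05 (all genes 3.03%), and for 0.0199% of all genes.

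The replicate number stood for more of the spread of these genes than diet or time did. Of the variance of log2 CPM the number took a median of 24.1% over the 71 genes and of 11.2% over all genes. Diet took 1.92% and 5.52%, time 12.6% and 20.1%, and the number by diet 6.61% and 2.36%. For mRpL2, whose bacterial counterpart lies at the peptidyl transferase centre, the number took 74.5%, and its mean log2 CPM on the control diet was 0.85 higher in series 2 than in series 1. For mRpS14 this difference was 0.71. In mRpS16 the number by diet took 29.5%, more than the number alone (20.2%) or diet (1.11%). What sets the series apart besides the number is not given in the sources used here, and its part in these differences was not tested.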

How the data were processed

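Estimated counts and TPM values per gene, each as 1 deposited table of 48 libraries, were used as the authors made them. The submitters' processing notes name kallisto 0.44.0 and FastQC. For transcript annotation, genome build, summation to genes and strandedness, a statement is not given in the sources used here. No coordinates are printed. Short fragments or degraded RNA change such counts with transcript length, and TPM divides by a length that the counting tool estimates. A share of 88.2% of the deposited estimated counts lay within 0.01 of a whole number, and all were rounded. No column of other samples was found (0 columns). Symbols came from a name table of gene IDs, which left 154 of 14205 genes without a symbol.

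The genes and the other lists were chosen with earlier results of these data known. Genes were kept with filterByExpr (minimum count 10, 24 groups of diet and time), which left 10070, scaled with TMM and tested with edgeR 4.0.16 in R 4.3.3 (quasi-likelihood F test with a trended dispersion, Benjamini-Hochberg over all genes tested, threshold 0.05). Time of day was a factor in the diet fits. Rhythms used a cosine and a sine of 24 h per diet, with amplitudes from least squares on log2 CPM (prior count 2). Genes were named when called in any test, at the 4 highest or lowest diet changes or mean TPM, at the 3 largest series differences, or at the 3 largest amplitudes per diet. Variance shares are sums of squares of a linear model on log2 CPM. Diet fits (all libraries and each series), the series difference and rhythms per diet were first checked on simulated data. Those data held no series difference in level and no trend with length. The other tests and the alternatives were not simulated.

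Alternatives were DESeq2 1.42.0, its size factors, no filter, limma 3.58.1 on log2(TPM + 1) and log2(TPM + 0.1), replicate blocks, marker scores as covariates, no time term and each library left out. The TPM values were not scaled further between libraries. For the replicate series, TPM, the ovary score alone, ZT 18 left out and rows of ribosomal RNA and mitochondrial DNA left out were chosen after seeing the data, as was the removal of the length trend (lowess over all genes, relative lengths from genes with an estimated count of at least 20).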

Additional observations from a re-analysis of the deposited data

Results flagged for a closer look

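The diet change differed between the replicate series, by the interaction test of edgeR at an adjusted p under 0.05, in 20 of the 71 genes. That test called 9.11% of all genes, and 4.49% with the more positive change in series 2. Values are log2 changes of series 2 minus series 1 on the CPM scale, each with 12 pairs of libraries per series. The largest were those of mRpL27 (0.60), mRpS16 (0.52), mRpL36 (0.48), mRpL55 (0.46), mRpS25 (0.46), mRpS28 (0.46) and mRpL51 (0.46). Next came mRpL41 (0.44), mRpL21 (0.44), mRpL18 (0.42), mRpL32 (0.42), mRpS33 (0.41) and mRpS21 (0.40). The others were mRpS11 (0.39), mRpL23 (0.38), mRpL45 (0.34), mRpL53 (0.33), mRpL28 (0.31), mRpL46 (0.29) and mRpL47 (0.27). Adjusted p ran from 0.00303 for mRpS16 to 0.043 for mRpL47. With the length trend removed 1 of the 20 was still called (all genes 4.07%), and by limma on log2(TPM + 1) none was (all genes 5.34%).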

How the results depend on the processing

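Over all 48 libraries the 3 calls (all genes 25.8%) became 5 (3 higher, 2 lower) with a replicate block by series and time, where 34.9% of all genes were called. They stayed 3 with a plain replicate block, where 38% of all genes were. They became 0 with ovary and gut scores as covariates (all genes 0.179%), 5 (all lower) with limma on log2(TPM + 1) or log2(TPM + 0.1), and 11 (all lower) with the length trend removed. Of all genes 19.3% were called in either TPM fit, where their medians were -0.09 and -0.11, and 26.8% with the length trend removed. The 0 calls of series 1 (all genes 0.0199%) became 2 by the DESeq2 test (all genes 2.09%). The 35 calls of series 2, all higher (all genes 42.8%, and 20.9% higher), became 0 with either set of marker scores (all genes 0%). In TPM 3 genes were called (all genes 44.1%), mRpL36 higher and mRpL14 and mRpS30 lower. With the length trend removed 6 were called (all genes 36.5%), 4 of them higher and mRpL14 and mRpS10 lower. The median of 0.14 became -0.0546 in TPM, where that of all genes was -0.14, and -0.0382 with the length trend removed, where that of all genes was 0.0044. The 20 calls of the series difference (all genes 9.11%) became 5 with both scores (all genes 3.12%), 4 with the ovary score (2.35%), 0 in TPM (5.34%) and 1 with the length trend removed (4.07%). No filter, DESeq2 size factors and rows of ribosomal RNA and mitochondrial DNA left out kept each count within 1.5 times and each median on its side of 0, but without the filter mRpL24 was not called over all libraries (adjusted p = 0.0737). Leaving out 1 library gave 2 to 5 calls over all libraries (5 without the restricted library of ZT 20, replicate 1), 0 to 0 in series 1, 25 to 37 in series 2, 13 to 32 for the series difference and 0 to 0 in the tests of time and rhythm. The medians ranged from -0.02 to 0.06, from -0.16 to -0.10, from 0.12 to 0.17 and from 0.26 to 0.32. For these fits too the shares of all genes called are not given here. Same-numbered libraries correlated above 0.1 at 8 of 12 times (from -0.16 to 0.47, median 0.15). Whether they shared a source is not given in the sources used here, and these values do not decide it. The series were compared by number, and libraries called a pair are known to share only a number and a time. Signs turned in series 2 with the length trend removed for mRpL18 (-0.0273), mRpL33 (-0.0409), mRpL34 (-0.0279), mRpL35 (-0.003), mRpL53 (-0.0102), mRpL9 (-0.0325), mRpS16 (-0.0363), mRpS18C (-0.0638), mRpS21 (-9e-04), mRpS24 (-0.0647), mRpS25 (-0.0929), mRpS6 (-0.0674) and mRpS7 (-0.0135). In TPM they turned for mRpL17 (-0.0277), mRpL18 (-0.0234), mRpL35 (-0.0035), mRpL4 (-0.0486), mRpL47 (-0.0225), mRpL53 (-0.0326), mRpL9 (-0.0452), mRpS24 (-0.0188), mRpS25 (-0.0569), mRpS6 (-0.0428) and mRpS7 (-0.0546). Each of these TPM values lay above the median of all genes in series 2, which was -0.14 in TPM. With both scores mRpS18C turned in series 2 (-0.0133), and over all libraries mRpL36 (-0.0295) and mRpL27 (-0.0627), the last also in TPM + 1 (-0.0609) and TPM + 0.1 (-0.0634). Relative lengths hardly varied between libraries, with a median SD of 0.00105 on the log2 scale over the mitochondrial ribosomal genes. The TPM values were not scaled between libraries. In series 2 mRpL36 stood at 0.4495 in CPM and 0.2505 in TPM, and mRpL18 at 0.1687 and -0.0234. The median of all genes was also lower there in TPM, at -0.1396 against 0.0146 in CPM. The part of the missing scaling in the TPM shifts was not tested, nor was the cause of the other shifts. Series 1 had the wider range of depth, from 5815484 to 33485917 counts.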
